A study of Mus musculus with 43 samples.

Results

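The 6 libraries made from 100 sorted cells each fell into 2 sets of 3, pools 1 to 3 and pools 4 to 6, that differed from each other far more than within themselves. The cells were PD798, a single cell line grown from a pancreatic ductal adenocarcinoma of a genetically engineered mouse that carried Pdx1-Cre with the alleles Rosa YFP/YFP and p53 L/+, in which Cre driven by the Pdx1 promoter acts on a floxed p53 allele and marks the pancreatic lineage with YFP. The culture was kept in DMEM with 10% FBS, mixed into normal mouse blood, cleared of blood cells by magnetic depletion and red-cell lysis, and sorted on YFP. Whole lysate of each sort was copied and amplified with the SMART-Seq v4 kit. The 6 pools were 6 of 31 libraries in the table on cell input, which also holds 11 single cells, 12 pools of 10 cells and 2 libraries of bulk RNA, and 6 of 43 libraries in the whole series. All 6 carry the same label for line, cell number and treatment, and nothing in the labels separates numbers 1 to 3 from numbers 4 to 6 or says whether they came from separate sorts. The 11461 of 13817 genes that reached 1 TPM (transcript abundance scaled for gene length and library total) in at least 3 of the 6 pools were compared, on the scale log2(TPM+1). The split itself was chosen from these values, so every difference between the 2 sets is given as a description, with no test.

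Libraries from few cells start with reverse transcription from the poly(A) tail, a template switch at the 5′ end of the RNA and many cycles of PCR on the whole cDNA. A long transcript has to be copied over its full length to be amplified, and GC-rich templates are harder to melt and copy, so transcript length and GC content are properties along which such libraries commonly part. The functional groups of interest in a pancreatic ductal tumor line are the keratins and junction proteins of simple epithelium, the glycolytic enzymes that such tumors rely on, the stress programs of the endoplasmic reticulum, and the housekeeping machines of ribosome, mitochondrion and proteasome, whose messages are mostly short.

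The middle of the coding sequence of 4 genes is shown because these genes stand at the ends of the split and differ visibly in base composition; they were picked after their values were seen. Jund (AP-1 transcription factor, chr8:70698949-70700616, plus strand) and Sox4 (SRY-box transcription factor, chr13:28948919-28953713, minus strand) were among the genes with the largest deficit in pools 4-6, and both are annotated with a single exon. Fkbp3 (an FK506-binding prolyl isomerase, chr12:65062424-65074007, minus strand) and Psmc6 (an ATPase subunit of the proteasome, chr14:45329788-45349705, plus strand) were higher in pools 4-6. Coordinates are on GRCm38, and 150 bases of each GENCODE principal transcript are printed 5′ to 3′ with G and C in capitals.
Jund: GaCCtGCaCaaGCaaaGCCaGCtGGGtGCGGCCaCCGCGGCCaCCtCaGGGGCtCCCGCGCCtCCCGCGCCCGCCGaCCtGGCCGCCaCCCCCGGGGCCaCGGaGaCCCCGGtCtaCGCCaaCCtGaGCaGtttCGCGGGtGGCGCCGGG
Sox4: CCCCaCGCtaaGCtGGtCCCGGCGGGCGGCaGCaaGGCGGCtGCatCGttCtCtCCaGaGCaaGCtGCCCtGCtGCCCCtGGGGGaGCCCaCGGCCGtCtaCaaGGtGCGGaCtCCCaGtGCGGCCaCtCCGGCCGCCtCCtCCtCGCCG
Fkbp3: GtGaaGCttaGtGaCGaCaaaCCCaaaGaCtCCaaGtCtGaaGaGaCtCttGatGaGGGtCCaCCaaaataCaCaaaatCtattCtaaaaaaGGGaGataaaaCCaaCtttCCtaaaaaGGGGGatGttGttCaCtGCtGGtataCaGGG
Psmc6: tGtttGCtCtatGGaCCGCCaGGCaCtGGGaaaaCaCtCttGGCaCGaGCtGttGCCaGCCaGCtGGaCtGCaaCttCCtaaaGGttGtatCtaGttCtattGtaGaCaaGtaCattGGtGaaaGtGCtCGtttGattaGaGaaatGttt
G and C made up 76.7% of the stretch shown for Jund, 72.7% for Sox4, 41.3% for Fkbp3 and 45.3% for Psmc6. Over the whole coding sequence the shares were 70.7%, 66.8%, 43.0% and 41.8%.

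Jund was measured at 685.7, 719.5 and 881.1 TPM in pools 1 to 3 and at 21.3, 26.2 and 30.6 TPM in pools 4 to 6, a ratio of the means of 29.3. Sox4 stood at 267.9, 270.2 and 326.2 TPM against 8.05, 9.97 and 6.85 TPM. The opposite held for Fkbp3, at 380.9, 380.9 and 356.7 TPM in pools 1 to 3 and 1164, 1029 and 1050 TPM in pools 4 to 6, and for Psmc6, at 313.4, 304.5 and 296.1 TPM against 791.5, 755.7 and 785.2 TPM. None of the 4 genes had overlapping sets, and the gains were much smaller than the losses. In the bulk RNA, Jund measured 510.1 and 494.5 TPM and Sox4 405.1 and 421.2 TPM, near pools 1-3. Fkbp3 was at 202.8 and 188.6 TPM there, below both sets.

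**Figure D1:**
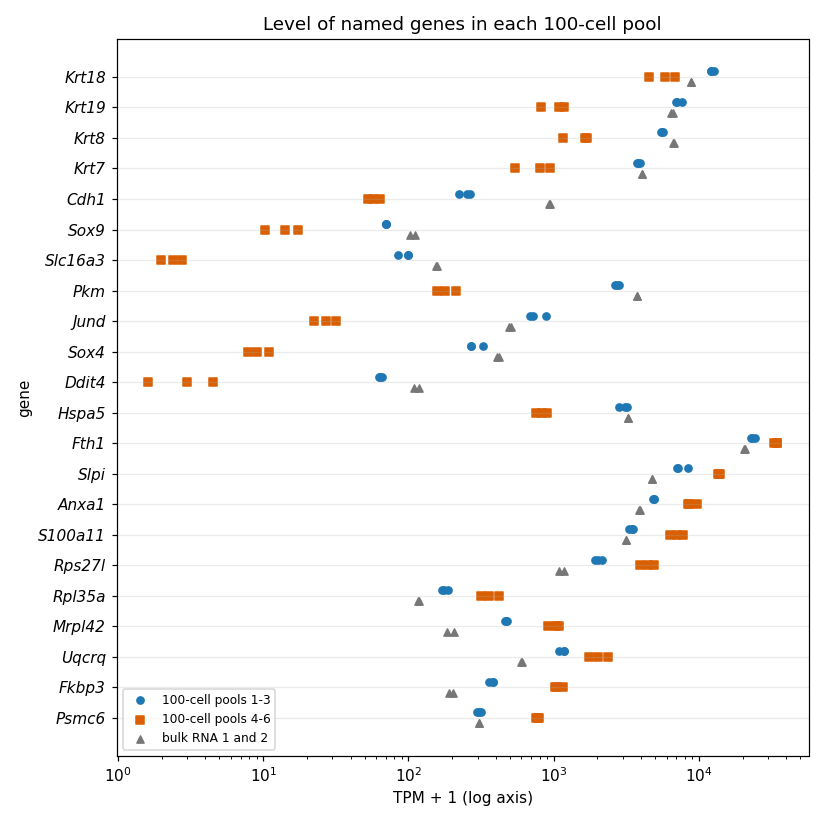
TPM + 1 (log axis) of 22 named genes in the 100-cell pools 1-3 (circles), the 100-cell pools 4-6 (squares) and the 2 bulk RNA libraries (triangles), 1 point per library. Keratins, Slc16a3, Pkm, Jund, Sox4 and Ddit4 lie to the right in pools 1-3, and from Fth1 downward the pools 4-6 lie to the right of both other groups.

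Across the 11461 genes, Pearson's r of log2(TPM+1) was 0.991 to 0.993 for the 3 pairs within pools 1-3, 0.973 to 0.979 for the 3 pairs within pools 4-6, and 0.864 to 0.890 for the 9 pairs between the sets. Between 0.558% and 0.768% of genes lay 2-fold or more apart within pools 1-3 and 5.51% to 7.31% within pools 4-6, against 43.5% to 51.1% between the sets. Pools 4-6 were also less alike among themselves: the median SD of a gene over 3 pools was 0.251 on the log2 scale, compared with 0.115 in pools 1-3, and it was the larger of both in 80.1% of genes. They listed 1181 to 1263 genes at 0, compared with 317 to 519 in pools 1-3, and their 100 most abundant genes held 32.5% to 33.6% of all TPM against 25.7% to 26.7%. The read depth of each single pool is not given in the sources used here, and TPM does not keep it.

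A gene was counted as different where the mean log2(TPM+1) of the sets differed by at least 1, a 2-fold change, and the 3 values of either set did not overlap. In these terms 4689 genes were higher in pools 1-3, which is 40.9% of the genes compared, and 395 were higher in pools 4-6, or 3.45%. At any fold, the sets did not overlap in 6938 genes higher in pools 1-3 (60.5%) and 1932 higher in pools 4-6 (16.9%). Because the pools were split on the same values, those shares are the description of the split and nothing is read from them. The median gene was 0.75 higher in pools 1-3 on the log2 scale, a factor of 1.68, so that group values below are also given relative to that median. The lopsided count belongs to the TPM scale. Of the genes counted in either direction, 92.2% were higher in pools 1-3 as deposited, 60.2% after bringing the pools to the same upper quartile, 50.5% after quantile normalization, and 32.7% after centring each pool on its median gene. At the edge of the rule, Nipal3 was just inside with a log2 difference of 1.00 and Rpl32 just inside on the other side, while Rsbn1 and Dynlt1a fell just short.

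The libraries that stand apart must be named before the pools are set beside smaller inputs. The libraries labelled 10-cell pool 5, 10-cell pool 12, single cell 6 and single cell 9 correlated with pools 1-3 at a mean r of 0.990, 0.992, 0.990 and 0.970, where each of pools 1-3 had a mean r of 0.992 to 0.993 with the other pools of its set. They listed 125 to 266 genes at 0. The other 10 libraries of 10 cells had a mean r of 0.877 to 0.949 with pools 1-3 and 1902 to 3639 genes at 0, and the other 9 single cells had 0.648 to 0.814 and 4583 to 9352 genes at 0. These 4 libraries were picked after their values were seen. Whether they hold what their labels say was not tested, and ranges for smaller inputs are given without them.

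The cells in all 6 pools carried the markers of the labelled tumor. All 8 ductal markers listed for this check, the keratins Krt7, Krt8, Krt18 and Krt19, the adhesion proteins Epcam, Cdh1 and Cldn7, and the transcription factor Sox9, had a mean above 1 TPM in both sets. Their summed level was 30416, 30247 and 31974 TPM in pools 1 to 3 and 7770, 10579 and 11503 TPM in pools 4 to 6, with 28319 and 28852 TPM in the bulk RNA. The sets did not overlap, and the deficit of pools 4-6 came mainly from the keratins. In libraries made from pooled cells, fewer cells of a type and less RNA per cell cannot be told apart. The 9 fibroblast, 6 endothelial and 7 islet markers that were looked up matched no row of the values used here, and the acinar enzyme gene Cela1 stayed at 1.51 TPM or below in the 6 pools.

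Most of the blood-cell markers considered, which would mark carry-over from the blood the line was mixed into, matched no row of the values used here. Of 11 erythroid markers considered 2 were measured, Alas2 and Bpgm, and their sum was 18.3 to 22.6 TPM in pools 1-3 and 18.6 to 27.4 TPM in pools 4-6, which overlap. Alas2, the erythroid enzyme that starts haem synthesis, was at 1.80, 1.94 and 1.03 TPM in pools 1 to 3 and at 11.6, 4.75 and 7.86 TPM in pools 4 to 6. It was at 0 and 0.415 TPM in the bulk RNA and at a median of 7.92 TPM in the 12 pools of 10 cells. The only lymphocyte marker measured of 10 listed, Cd79a of the B-cell receptor, did not exceed 0.777 TPM in the pools, and the myeloid receptor Csf1r was at 0.102 TPM or below. The 4 monocyte and leukocyte genes measured of 12 summed to 237.9 to 240.5 TPM in pools 1-3 and 169.5 to 324.3 TPM in pools 4-6, which overlap. Within that sum the macrophage marker Cd68 was at 50.2, 53.9 and 49.8 TPM in pools 1 to 3 and higher without overlap, at 84.3, 83.9 and 74.2 TPM, in pools 4 to 6, while Cd14 overlapped. In bulk RNA of the line Cd68 was at 36.6 and 30.7 TPM and Cd14 at 124.2 and 137.6 TPM. The 3 platelet genes measured of 8 summed to 5.86 TPM at most. The 4 neutrophil genes measured of 12 summed to 2936 to 3030 TPM in pools 1-3 and 3328 to 4491 TPM in pools 4-6, nearly all of it Lcn2, which was at 4743 and 4685 TPM in bulk RNA of the line. Ltf went the other way, at 82.7, 72.8 and 70.9 TPM in pools 1 to 3 and 13.2, 1.84 and 1.08 TPM in pools 4 to 6. It was at 132.9 and 122.2 TPM in bulk RNA. S100a8 and S100a9 overlapped between the sets. In bulk RNA S100a8 was at 37.4 and 51.0 TPM and S100a9 at 8.4 and 9.9 TPM. Cd68, Cd14, Lcn2, Ltf, S100a8 and S100a9 were thus also measured in bulk RNA of the line. The part of blood cells in the split was not tested.

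GC content moved with the difference more than any other property examined. The log2 difference between the sets had a rank correlation of 0.502 across 11401 annotated genes with the GC content of all annotated exons, and of 0.208 with exonic length; genes are not independent replicates, and these values describe the 6 libraries only. In the decile of genes lowest in GC (median 39.7%) the median log2 difference was -0.12, and it climbed through every decile to 1.80 in the highest (median 59.0%). In the lowest decile 4.65% of genes were counted higher in pools 1-3, and in the highest decile 72.0%. Within the sets the same correlation was -0.316 to -0.0505 for pairs of pools 1-3 and -0.156 to -0.0553 for pairs of pools 4-6, compared with 0.428 to 0.538 for the 9 pairs between the sets.

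The dependence on length had a different shape. The decile of shortest genes, with a median of 1209 exonic bases, had a median log2 difference of -0.31, the sixth decile had 1.07, and the decile of longest genes, with a median of 11993 bases, came back to 0.70. Against the bulk RNA, GC correlations differed in sign between the sets and length correlations did not. The rank correlation of the difference from bulk with GC was 0.0209 to 0.0927 in pools 1-3 and -0.353 to -0.296 in pools 4-6. With length it was -0.575 to -0.550 in pools 1-3 and -0.438 to -0.379 in pools 4-6, negative in all 6 pools. Relative to bulk RNA, pools 1-3 were thus nearly level across GC deciles but lower in longer genes, and pools 4-6 were lower both in longer and in GC-richer genes.

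**Figure D2:**
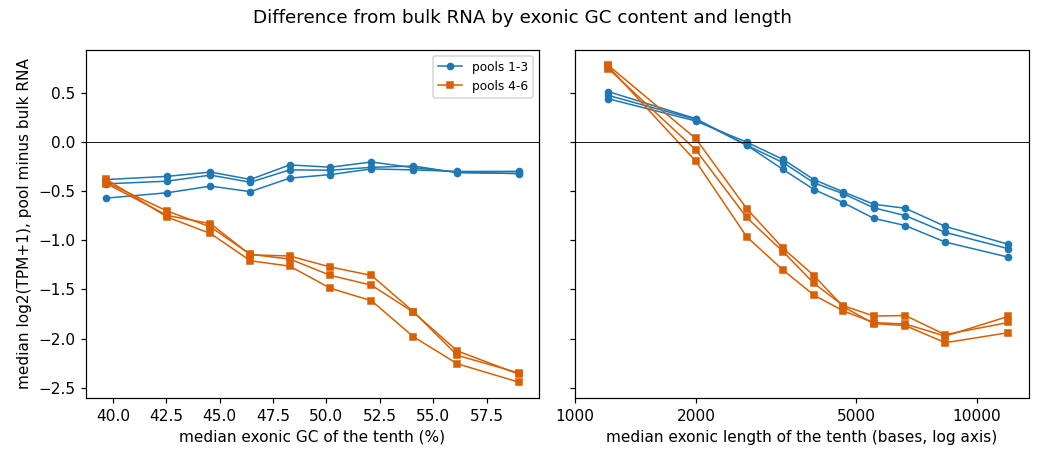
Median difference of log2(TPM+1) between each 100-cell pool and the mean of the bulk RNA, in deciles of genes by exonic GC content (left, %) and by exonic length (right, bases, log axis). Lines are the 6 pools. Pools 1-3 stay between -0.57 and -0.21 over the GC deciles, whereas pools 4-6 go from between -0.42 and -0.38 in the lowest decile to between -2.44 and -2.35 in the highest.

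Both properties were then combined, by splitting the genes into tertiles by the GC content and the length of their principal transcript. Short transcripts of low GC were the only one of 9 combinations with more genes higher in pools 4-6: 218 of 837 against 13 higher in pools 1-3, at a median log2 difference of -0.73. Transcripts of middle length and high GC were at the other extreme, with 1155 of 1310 genes higher in pools 1-3, none higher in pools 4-6 and a median of 2.13. Long transcripts of low GC had a median of 0.45, and short transcripts of high GC 0.78. Smooth curves of exonic GC and length together accounted for 44.7% of the variance of the difference between genes, GC alone for 26.0% and length alone for 7.33%. With the GC and length of the principal transcript in place of all exons the share was 51.1%, and adding the bulk RNA level brought it to 53.5%.

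When those curves were taken out of each pool, 1214 genes remained counted as higher in pools 1-3 (10.6% of 11401) and 1303 as higher in pools 4-6 (11.4%). Of the 4680 annotated genes counted higher in pools 1-3 as deposited, 1164 were still among them, and of 391 counted higher in pools 4-6, 168. With principal transcripts the counts were 1058 (9.28%) and 992 (8.7%). A call after removal says that a gene stood apart from genes of like length and GC, and no longer which set had more of its RNA. Gapdh shows the difference: this glycolytic enzyme was at 2323, 2346 and 2417 TPM in pools 1 to 3 and at 2111, 2527 and 2510 TPM in pools 4 to 6, overlapping and with means within a factor of 1.01, yet it lay at -1.57 after removal, because that value is taken relative to genes of like GC and length.

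Keratins of simple epithelium were the 4 genes that lost most TPM in pools 4-6. Krt18, the filament partner of Krt8 in simple epithelia, was at 12208, 12107 and 12806 TPM in pools 1 to 3 and at 4517, 5816 and 6899 TPM in pools 4 to 6. Krt19, a duct keratin, was at 7098, 6995 and 7712 TPM against 812.5, 1182 and 1086 TPM, a ratio of 7.08. Neither gene overlapped between the sets, and Krt18 in pools 1-3 also lay above the bulk RNA, where it was at 8780 and 8890 TPM. Krt19 in the bulk RNA, at 6471 and 6665 TPM, was close to pools 1-3. Of 23 genes of keratin and simple-epithelial identity 17 (73.9%) were counted higher in pools 1-3 and none in pools 4-6, against 40.9% and 3.45% of all genes, with a median log2 difference of 1.4. The serine protease St14 was the furthest apart of that list, at 75.9, 73.8 and 70.0 TPM against 2.74, 2.59 and 3.04 TPM.

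Junction genes were nearly all on the same side. Of 30 genes of adherens, desmosome and tight junctions 22 (73.3%) were counted higher in pools 1-3 and none in pools 4-6, where 40.9% and 3.45% of all genes were, at a median of 1.23. Tjp3, a tight junction scaffold, went from 19.5, 17.3 and 16.8 TPM to 0.131, 0.548 and 0.752 TPM. Cdh1, which encodes E-cadherin, was at 262.6, 251.3 and 221.2 TPM in pools 1 to 3 and at 56.0, 62.4 and 51.9 TPM in pools 4 to 6, and both sets were well below the 938.7 and 929.0 TPM of bulk RNA. Epcam was the mildest of the surface markers, at 820.7, 844.9 and 825.7 TPM against 439.9, 563.2 and 607.3 TPM, and was not counted. Of 10 mesenchymal genes that passed the filter, 4 were counted higher in pools 1-3, a share near the 40.9% of all genes, and among them the receptor kinase Axl had a ratio of 3.60 and N-cadherin (Cdh2) of 3.62. Vim was at 65.6, 61.8 and 72.8 TPM against 60.8, 25.5 and 25.9 TPM and was not counted.

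Among metabolic genes, Slc16a3, the lactate exporter of glycolytic cells, had the largest log2(TPM+1) difference of all counted genes, 5.32, at 98.5, 83.2 and 98.9 TPM in pools 1 to 3 and 1.78, 1.38 and 0.976 TPM in pools 4 to 6. Of 18 glycolysis genes that passed the filter 13 (72.2%) were counted higher in pools 1-3 and none in pools 4-6, beside 40.9% and 3.45% of all genes. Pkm, which makes pyruvate, was at 2832, 2714 and 2636 TPM against 156.1, 211.4 and 177.4 TPM, a ratio of 15.0. Ldha, which turns pyruvate into lactate, differed by a ratio of 2.13 and Gapdh overlapped between the sets, so enzymes of a single pathway ranged widely. Their principal transcripts were 2432 bases for Pkm, 1766 for Ldha and 1420 for Gapdh, and the part of length or GC in that range was not tested.

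The genes of the immediate-early response followed, with 19 of 27 (70.4%, beside 40.9% of all genes) counted higher in pools 1-3 and a median of 1.45. Jun, the partner of Fos in AP-1, was at 126.5, 125.2 and 131.7 TPM against 10.7, 5.97 and 6.35 TPM. Fos itself was at 1391, 1381 and 1325 TPM against 335.0, 411.7 and 372.2 TPM. Dusp1, a MAP kinase phosphatase, was closer still with a ratio of 2.04. Fosb went the other way without reaching 2-fold, at 26.1, 25.2 and 28.3 TPM in pools 1 to 3 and 68.1, 50.0 and 38.6 TPM in pools 4 to 6.

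Genes of stress responses had the highest list median. Among the 36 genes of the integrated stress response and amino-acid supply, 26 (72.2%) were counted higher in pools 1-3 and none in pools 4-6, beside 40.9% and 3.45% of all genes, with a median of 1.70. Ddit4, an inhibitor of mTORC1, was at 64.6, 61.3 and 62.6 TPM against 3.49, 0.612 and 1.97 TPM, and the pseudokinase Trib3 at 261.7, 276.7 and 292.7 TPM against 14.04, 20.5 and 21.3 TPM. Atf4, the factor that drives this program, overlapped between the sets at 318.5, 345.5 and 355.1 TPM and 234.2, 331.5 and 278.3 TPM. Its target Asns, asparagine synthetase, lay on the other side at 684.7, 710.7 and 617.8 TPM against 899.0, 928.8 and 842.9 TPM. The members thus lay on both sides. Of 22 genes for chaperones of the endoplasmic reticulum and the unfolded protein response 16 (72.7%, beside the same 40.9%) were counted higher in pools 1-3. Hspa5, the main chaperone of that compartment, was at 3185, 3081 and 2812 TPM against 836.3, 754.8 and 896.9 TPM. Its exons are 45.6% GC and its principal transcript has 3672 bases, and the part of GC or length was not tested.

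As deposited, fewer genes were counted higher in pools 4-6. Ranking by the change in TPM picks abundant genes, both for gains and for losses. In TPM, the 10 largest gains added up to 5.17% of the transcript pool, the 10 largest losses to 3.14% and all gains to 27.6%. Fth1 and Ftl1, the chains of the iron store ferritin, gained most: Fth1 was at 23270, 22994 and 24358 TPM in pools 1 to 3 and at 34589, 33166 and 34418 TPM in pools 4 to 6. Slpi, a secreted protease inhibitor, was at 7230, 7068 and 8424 TPM against 13735, 13533 and 13974 TPM. Anxa1 and S100a11, an annexin and a calcium-binding partner of annexins, were 1.82 and 2.04 times higher in pools 4-6. Each of these genes was separated without overlap, as were 16.9% of all genes in that direction, though only S100a11 also reached the 2-fold rule. The decile of genes with the shortest exons held 20.9% of all TPM in pools 1-3, 29.7% in pools 4-6 and 13.8% in bulk RNA.

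Cytosolic ribosomal proteins had the lowest list median. Of 77 cytosolic ribosomal protein genes that passed the filter, 6 (7.79%) were counted higher in pools 4-6 and none in pools 1-3, beside 3.45% and 40.9% of all genes, and only 3 had a difference above 0. Their median log2 difference was -0.76, which is -1.51 relative to the median gene, the lowest of 36 lists. Rpl35a, of the large subunit, was at 175.3, 168.5 and 187.5 TPM in pools 1 to 3 and at 421.8, 355.7 and 315.9 TPM in pools 4 to 6. Together these genes held 4.50% of TPM in pools 1-3, 7.27% in pools 4-6 and 3.46% in bulk RNA. Reads of ribosomal protein genes can be shared with processed pseudogenes, and how these were counted is not known.

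Mitochondrial proteins encoded in the nucleus were close to the ribosome. The median was -0.76 for 78 genes of oxidative phosphorylation and -0.56 for 76 mitochondrial ribosomal proteins. Of these, 8 (10.3%) and 13 (17.1%) were counted higher in pools 4-6, beside 3.45% of all genes, and 6 (7.69%) and 2 (2.63%) higher in pools 1-3, beside 40.9%. Uqcrq, a small subunit of complex III, was at 1092, 1174 and 1181 TPM in pools 1 to 3 and at 2356, 2035 and 1741 TPM in pools 4 to 6, short of 2-fold. Sdha, the large flavoprotein subunit of complex II, was at 189.5, 169.0 and 165.1 TPM against 32.8, 33.4 and 31.5 TPM. Genes of oxidative phosphorylation therefore lay on both sides. Mitochondrial ribosomal proteins showed the same, with Mrpl42 at 468.5, 477.2 and 461.8 TPM against 1085, 1043 and 909.6 TPM and Mrps5 at 44.6, 46.2 and 46.0 TPM against 10.2, 14.5 and 11.5 TPM. The principal transcript of Mrpl42 has 666 bases and that of Mrps5 4481, and the part of length or GC in this pair was not tested. Genes of the mitochondrial genome were not analysed here.

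The subunit genes of the proteasome were spread in the same way. Of 36 subunit genes 5 (13.9%) were counted higher in pools 4-6 and 6 (16.7%) higher in pools 1-3, beside 3.45% and 40.9% of all genes. Psma2, of the core ring, was at 876.5, 901.8 and 863.5 TPM against 2059, 1820 and 1728 TPM. Psmd3, of the regulatory cap, was at 199.1, 201.1 and 200.7 TPM against 15.5, 17.5 and 19.01 TPM. The exons of Psma2 are 39.7% GC and those of Psmd3 55.7%. The class I antigen pathway was divided too: B2m, its invariant light chain with 41.2% GC, was at 304.0, 305.0 and 320.3 TPM in pools 1 to 3 and 817.0, 561.3 and 585.4 TPM in pools 4 to 6, whereas the peptide transporter Tap2 with 57.2% GC went from 9.28, 7.92 and 6.62 TPM to 0, 0.276 and 0.184 TPM. The part of GC or length in these pairs of genes was not tested.

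Removing exonic GC and length drew the gene groups together without merging them. Before removal the medians of the 36 lists with a measured gene lay from -1.51 to 0.96 around the median gene, with an SD of 0.714 over lists; after it they lay from -1.04 to 0.98 with an SD of 0.475. Immediate-early genes came from 0.71 to 0.21, the hemidesmosome and basal genes from 0.79 to 0.29, and YAP/TEAD targets from 0.34 to -0.13. The groups that stayed high were class I presentation at 0.81, the integrated stress response at 0.80, chaperones of the endoplasmic reticulum at 0.68 and the keratins at 0.58. Those that stayed low were cytosolic ribosomal proteins at -1.04, mitochondrial ribosomal proteins at -0.90 and oxidative phosphorylation at -0.78. Gastric and mucin genes stood highest of all at 0.98, from only 7 genes, having been at -0.22 before removal, and were at 0.06 when GC alone was removed.

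Of the 36 lists, 17 kept their sign after removal under each of 15 other settings, 13 above 0 and 4 below. The range was 0.59 to 1.18 for the integrated stress response, 0.61 to 1.31 for chaperones, 0.22 to 1.08 for keratins, 0.40 to 0.82 for glycolysis and 0.18 to 0.96 for class I presentation. It was -1.65 to -0.29 for cytosolic ribosomal proteins, -1.33 to -0.40 for mitochondrial ribosomal proteins and -1.48 to -0.13 for oxidative phosphorylation, in each case nearest 0 under quantile normalization. The proteasome, S100 and annexin, and Nrf2 and glutathione lists were below 0 after removal but turned above 0 under that setting. No list is called particular to the split from these medians, since their genes were chosen with earlier results of these libraries known.

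**Figure D3:**
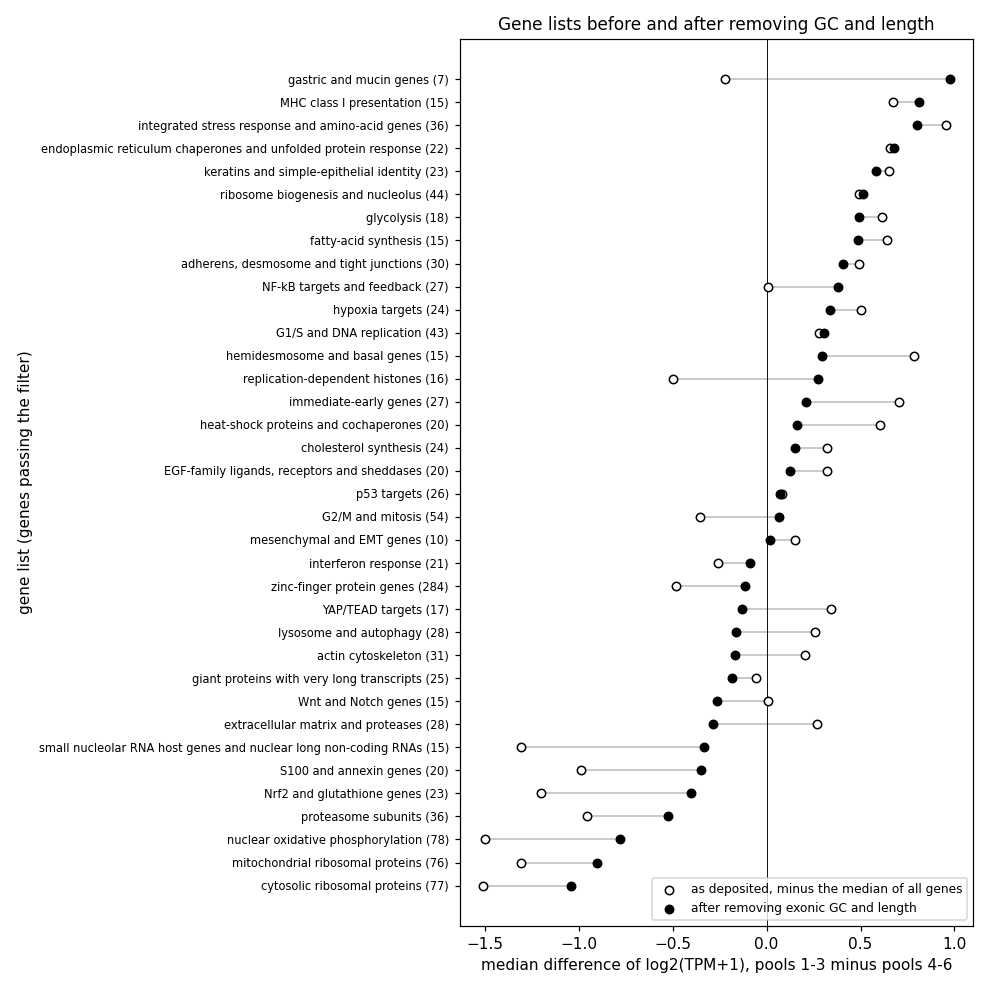
Median difference of log2(TPM+1), pools 1-3 minus pools 4-6, for 36 gene lists (number of genes passing the filter in brackets), as deposited relative to the median of all genes (open circles) and after removing exonic GC and length (filled circles). Cytosolic ribosomal proteins move from -1.51 to -1.04 and immediate-early genes from 0.71 to 0.21.

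Among single genes, Slc16a3, Sox4 and Jund were followed in the 10 largest deficits of pools 4-6 by Mmp14, Lzts2, Lemd2, Krt13, Qsox1, Ddit4 and Psap, at log2 differences of 4.48 to 4.71. After removal, Sox4 at 3.72, Krt13 at 3.73, Ddit4 at 3.36, Psap at 3.32 and Slc16a3 at 3.29 were among the 10 furthest. So were the small RNA genes Mir6236 at 4.25, Mir425 at 3.84 and Snord100 at 3.36. Towards pools 4-6 the furthest after removal were Fosb at -2.99, Naca and Exoc3l4 at -2.82, Mir763 at -2.64 and Mrpl23 at -2.63. Small RNA genes thus lay on both sides after removal. Psap, the precursor of the lysosomal saposins, was at 223.4, 211.8 and 184.7 TPM against 7.70, 7.25 and 10.2 TPM. As deposited, the largest excesses in pools 4-6 belonged to genes of very short RNA, Mir763 at -2.87, Snord69 at -2.39 and Snord47 at -2.04. Their annotated exons cover 120, 80 and 77 bases. Snord47 lies inside Gas5, a host gene that was itself higher in pools 4-6 at 188.9, 169.1 and 144.1 TPM against 62.2, 65.6 and 64.3 TPM, and reads of a guest and its host cannot be told apart in these values. The annotated protein-coding genes that followed included Fam229b, Fgf7, Fkbp3 and Zfp825, at -1.63 to -1.51. At the far end of length, D10Wsu102e, annotated with 123179 exonic bases, lay at 3.83 after removal and 8.01 with its principal transcript although its own log2 difference was 1.53, so values after removal are not informative at such lengths.

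A further set of genes was chosen without using the 100-cell pools. In total 65 genes were at 10 TPM or more in both bulk RNA libraries and below 1 TPM in at least 8 of the 12 libraries of 10 cells. Both limits were set after the data were seen. Pools 1 to 3 listed 60, 59 and 61 of them at 1 TPM or more, and pools 4 to 6 listed 16, 15 and 14. The other 10 libraries of 10 cells, whose low values chose the genes, listed 5 to 15, and the other 9 single cells 2 to 20. Of all 13817 genes, 11488 to 11549 reached 1 TPM in pools 1-3 and 10255 to 10400 in pools 4-6. The 65 genes were chosen as high in bulk RNA, with which pools 1-3 correlated more than pools 4-6. The order of the sets on them may follow from that choice, and nothing is read from it. Of the 65, 57 passed the filter, most of them through pools 1-3, so their counted differences are not given. Their median GC content was 54.7% against 49.2% over all genes, and their median principal transcript had 4016 bases against 2856. They are thus both richer in GC and longer than the genes compared. The looser choice of at least 6 of 12 libraries gave 187 genes, of which 181 to 182 reached 1 TPM in pools 1-3 and 49 to 66 in pools 4-6.

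Individual genes of that set differed in how the 3 pools 4-6 compared with each other. Gkn2, a gastric mucosal protein with 45.4% exonic GC, was at 147.4, 148.7 and 134.0 TPM in pools 1 to 3, near the 175.5 and 184.3 TPM of bulk RNA, and at 53.5, 167.4 and 2.65 TPM in pools 4 to 6. Pool 5 lay above pools 1-3 and pool 6 far below. Its SD of 2.84 in pools 4-6 on the log2 scale was the largest of the 65, whose median SD was 0.24 in pools 4-6 and 0.173 in pools 1-3. Ltf, the secreted iron-binding lactoferrin, was at 82.7, 72.8 and 70.9 TPM against 13.2, 1.84 and 1.08 TPM. Krt13, a keratin of stratified epithelia, was at 25.8, 30.04 and 30.2 TPM against 0, 0 and 0.957 TPM. Gkn2 and Krt13 were also present in the libraries labelled 10-cell pool 5, 10-cell pool 12, single cell 6 and single cell 9, with Gkn2 at 171.4, 162.4, 188.5 and 235.7 TPM and Krt13 at 38.9, 44.4, 47.5 and 40.7 TPM. In the other 9 single cells Krt13 was at 0 throughout, and Gkn2 was below 1 TPM in 7 of them and reached 1373 TPM. Those 4 libraries listed 54 to 61 of the 65 genes.

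**Figure D4:**
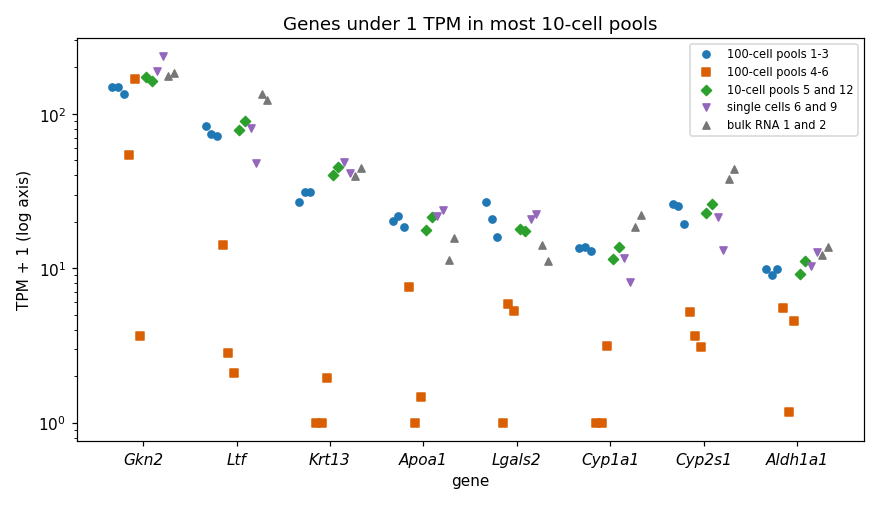
TPM + 1 (log axis) of 8 of the 65 genes that were at 10 TPM or more in bulk RNA and below 1 TPM in at least 8 of 12 libraries of 10 cells, in the 6 pools of 100 cells, the 4 smaller-input libraries that resembled pools 1-3, and the bulk RNA. In pools 4-6 (squares) the points scatter, from 2.65 to 167.4 TPM for Gkn2, while the 3 pools 1-3 stay between 134.0 and 148.7 TPM.

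The other libraries are given on the genes that separated the pools. Since these genes were chosen as extreme in the pools, libraries outside the choice tend to fall between the sets on them, and nothing is read from that order. The mean log2(TPM+1) over the 4689 genes was 4.56 to 4.64 in pools 1-3, 2.64 to 2.76 in pools 4-6 and 5.31 to 5.32 in bulk RNA, and over the 395 genes 5.51 to 5.59, 6.64 to 6.81 and 5.20 to 5.22. The 12 libraries of the experiment on cell processing, normalized separately and holding 4628 and 373 of those genes, lay beside the bulk RNA at 5.27 to 5.35 and 5.23 to 5.39. The other 10 libraries of 10 cells were at 3.01 to 4.07 and 5.76 to 6.24, and the other 9 single cells at 1.47 to 3.74 and 3.47 to 5.11. Over all genes compared, the mean r with bulk RNA was 0.917 to 0.927 for pools 1-3, 0.772 to 0.864 for the other libraries of 10 cells, 0.735 to 0.753 for pools 4-6 and 0.562 to 0.759 for the other 9 single cells. The GC correlation relative to bulk was -0.225 to -0.084 in those 10 libraries, between the values of the sets of pools.

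**Figure D5:**
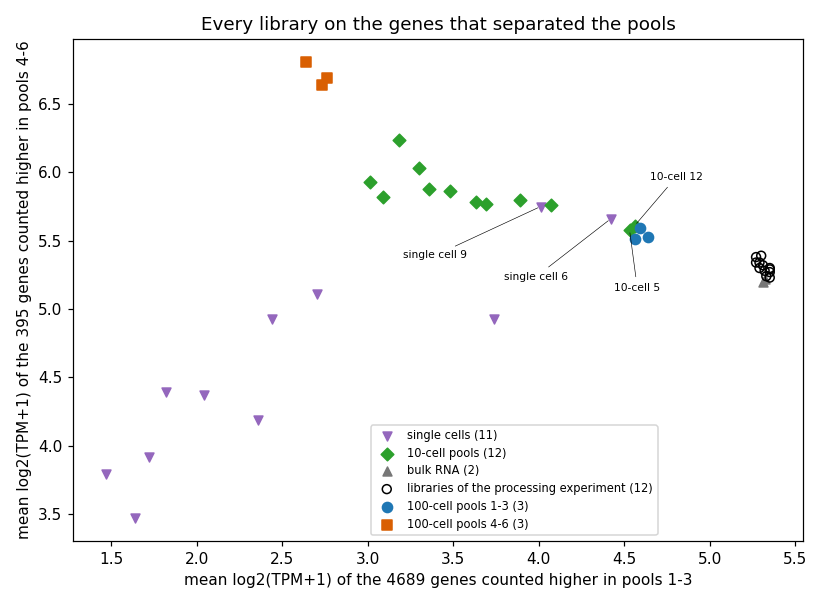
Mean log2(TPM+1) of the 4689 genes counted higher in pools 1-3 (horizontal) and of the 395 counted higher in pools 4-6 (vertical) for each of 43 libraries, 1 point per library. Pools 4-6 sit alone at the upper left, pools 1-3 lie beside the libraries labelled 10-cell 5, 10-cell 12 and single cell 6, and the bulk RNA and processing libraries form a group at the right.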

How the data were processed

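The deposited values are TPM, which the authors computed from paired-end reads aligned with STAR to mm10, counted with featureCounts, upper-quartile normalized and divided by effective gene length. Annotation used for counting was not given in the sources used here, and TPM keeps no read depth. Values were taken as log2(TPM+1) for genes of at least 1 TPM in 3 of the 6 pools. GC content and length of all annotated exons, or of the principal transcript, came from GENCODE M21 (GRCm38), matched by symbol for 13712 of 13817 genes, and were removed from each pool with natural splines of 4 degrees of freedom (patsy 1.0.2), a step checked on simulated data. Members, gene lists and the split were chosen with earlier results of these data known. Named genes are the 10 largest differences each way among counted genes with a mean of 10 TPM in the higher set, before and after removal, the 2 most different and 2 most abundant members of each list, and the markers; Jun, Atf4, Asns, the genes of largest TPM gain or loss, the genes low in 10-cell libraries and the sequence windows were chosen after their values were seen. No test was run between the sets, since the values chose the split. Nothing says that the pools came from separate cultures. An allele of the line and a marker gene are not reported here.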

Additional observations from a re-analysis of the deposited data

Results flagged for a closer look

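Among 32 values of markers and summaries over the 6 pools, 1 had a pool far from the others by Dixon's ratio of the gap to the range, above the critical value for 6 samples. Chance puts about 1 in 20 there. S100a8, a neutrophil calcium-binding protein, was at 53.4, 42.5 and 32.6 TPM in pools 1 to 3 and at 29.2, 128.3 and 26.8 TPM in pools 4 to 6, and pool 5 gave a ratio of 0.738.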

How the results depend on the processing

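No paired analysis was possible because the split is within a single group whose pools share no numbers. With main counts of 4689 and 395 genes higher in pools 1-3 and pools 4-6, and 1214 and 1303 after removal of GC and length, leaving out each pool in turn gave 4618 to 4798, 329 to 506, 1202 to 1311 and 1267 to 1373. Quantile normalization gave 1942 and 1902, a shared upper quartile 2819 and 1867, and centring on the median gene, chosen after seeing the data, 1533 and 3150. A fold of 1.5 gave 1333 genes higher in pools 4-6, and 2524 and 2662 after removal; a fold of 4 gave 1700 and 4, and 137 and 45. Removing length alone left 1997 and 2130. The GC correlation was 0.428 without a filter and 0.539 after quantile normalization, and the length correlation 0.0984 after quantile normalization and 0.296 with principal transcripts, the latter chosen after seeing the data. Mean r within minus between the sets was 0.0808 without a filter and 0.148 above a mean of 5 TPM. Of 36 lists, 29 kept their sign in all settings before removal and 17 after it. Before removal, the interferon list, beyond its spread between pools in the main setting, went to 0.0718 at a pseudocount of 0.1; gastric (to 0.2), mesenchymal, NF-kB, p53, Wnt and Notch, and giant-protein lists, whose main values lay within that spread, also changed sign. After removal, mesenchymal (0.0152, to -0.264), G2/M (0.0671, to -0.412) and p53 (0.0688, to -0.0301) lists did so from within the spread, and beyond it hemidesmosome -0.0175, cholesterol -0.0776 and interferon 0.141 at that pseudocount; YAP/TEAD 0.0216, interferon 0.121, extracellular matrix 0.124, lysosome 0.0362 and giant proteins 0.00406 without a filter; heat shock -0.298 and Wnt and Notch 0.137 above 5 TPM; S100 and annexin 0.402, Nrf2 0.321, proteasome 0.253, histones -0.00304, actin 0.30, extracellular matrix 0.082 and lysosome 0.11 under quantile normalization; interferon 0.074 with a shared upper quartile and 0.00708 without pool 2 (range over left-out pools -0.12 to 0.00708); cholesterol -0.0361 without pool 4 (range -0.0361 to 0.269); YAP/TEAD 0.0204, histones -0.739 and Wnt and Notch 0.0168 with GC alone; YAP/TEAD 0.231, G1/S -0.00677, actin 0.232, extracellular matrix 0.215, lysosome 0.255 and giant proteins 0.219 with length alone; zinc fingers 0.011 and interferon 0.0892 with bulk level added; and giant proteins 0.156 with principal transcripts. The cause of these changes was not tested. Depth per pool is not given in the sources used here, so listed zeros give no limit of detection.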
